A study of Homo sapiens with 4 samples.

Results

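Long noncoding RNAs are transcripts without a long protein-coding frame, and several of them are used as markers of prostate cancer or shape the nucleus of every cell. The 10 genes described here are PCGEM1, PCA3, PCAT1, PCAT14, SCHLAP1, MALAT1, NEAT1, LINC01029, PVT1 and DANCR. They were picked by gene name, with earlier results of the same table known. Of the 10 names, 9 were listed in the deposited table of 22637 genes, and PCGEM1 was not analysed here.

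RNA was sequenced from 4 human prostate adenocarcinoma cell lines, with 1 library per line. LNCaP came from a lymph node metastasis and is castration-sensitive. C4-2B descends from LNCaP and is castration-resistant. LN-OlapR and 2B-OlapR were selected from LNCaP and C4-2B, respectively, by long exposure to rising doses of olaparib, an inhibitor of the DNA repair enzyme PARP. The series description gives 48 hours of plating without a selection agent, and the labels give all 4 as untreated. The study's methods give a longer plating time and keep the resistant lines in olaparib between assays, so the exposure just before RNA was taken is not settled here. Whether a resistant line is a single clone or a mixed population is not given in the sources used here. All 4 lines share 1 ancestor and carry the genome changes of cancer lines.

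The library totals ranged from 19950537 to 26394267 counts. The 13 listed marker genes of prostate luminal cells each had at least 1 normalized CPM (the count divided by the scaled size of its library) in every library. Their summed normalized level ranged from 4876 CPM in LNCaP to 8464 CPM in LN-OlapR. The sum does not show single genes, such as the luminal marker SLC45A3, at 592 CPM in C4-2B and 74.7 CPM in 2B-OlapR. KRT14, the one basal marker listed of 4, stayed between 0.112 and 0.557 CPM. Some markers of other cell types were higher, with SYP at up to 3.13 CPM, CD68 at up to 5.14, VWF at up to 12.2 and COL1A1 at up to 16.1. KLK3, which encodes prostate-specific antigen, was at 53.1 CPM in LNCaP against 1870.1 to 2685 CPM in the other lines. The LNCaP library thus stood apart in a gene typical of the line. No ratio of LN-OlapR to its parental line can be given without it. The levels of all 4 libraries therefore stand beside the ratios of the analysed genes of the set. Some genes of the comparison lists are given with the libraries of 1 pair only. Since each line has 1 library, no replicate spread exists within a line, and the ratios of a pair carry no test. Intervals below are 95% intervals that cover counting error only, and a difference between lines cannot be told apart from a difference between libraries.

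PCA3, PCAT14 and PCGEM1 are known for expression that is largely restricted to the prostate, and PCA3 is measured in urine as a test for prostate cancer. SCHLAP1 marks aggressive disease and is known to act against the SWI/SNF chromatin remodelling complex. PCAT1 lies before MYC in a stretch with few coding genes that carries prostate cancer risk, and it is known to repress BRCA2, a gene of homologous recombination. PVT1 is the long noncoding neighbour of the oncogene MYC. MALAT1 sits in nuclear speckles, where splicing factors gather, and NEAT1 is the scaffold of paraspeckles, nuclear bodies built around its long form. DANCR is known for holding back differentiation and carries a small nucleolar RNA in its gene.

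MALAT1 and NEAT1 share an unusual 3′ end, shown here because it sets them apart from the other genes and bears on how libraries that select poly(A) tails capture them. Both mature ends are cut by RNase P and protected by a triple helix of 2 uridine-rich tracts and 1 adenosine-rich tract, in place of a normal poly(A) tail. Short forms of NEAT1 are polyadenylated. The stretches come from transcripts MALAT1-202 of 8708 nt and NEAT1-202 of 22743 nt in GENCODE 29 (GRCh38). Capitals mark the 3 tracts, with T written for U.
MALAT1, chr11:65506019-65506126, plus strand: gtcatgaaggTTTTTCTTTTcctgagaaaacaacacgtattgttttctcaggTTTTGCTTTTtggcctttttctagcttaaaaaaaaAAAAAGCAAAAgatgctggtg
NEAT1, chr11:65445443-65445540, plus strand: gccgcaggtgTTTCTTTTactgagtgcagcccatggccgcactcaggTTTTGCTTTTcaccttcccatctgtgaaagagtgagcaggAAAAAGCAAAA

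The second uridine-rich tract, TTTTGCTTTT, and the adenosine-rich tract, AAAAAGCAAAA, were identical in both. The annotated NEAT1-202 ended exactly at the adenosine-rich tract, and MALAT1-202 ran on for 353 bases, a stretch that holds the tRNA-like small RNA of the locus. Of the 58676 annotated genes of GENCODE 29, 0.728% held AAAAAGCAAAA and 2.07% held TTTTGCTTTT in their transcripts, on the sense strand. A match of these letters alone is a description and no sign of a triple helix.

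The levels ran from PCAT14, below 1 CPM throughout, to MALAT1. The widest range belonged to LINC01029, whose highest library was 28.4-fold above its lowest. DANCR had the narrowest range, at 1.52-fold. The ranges of MALAT1, SCHLAP1 and PCAT1 were similar in size, at 5.69-fold, 5.48-fold and 5.38-fold.

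**Figure D1:**
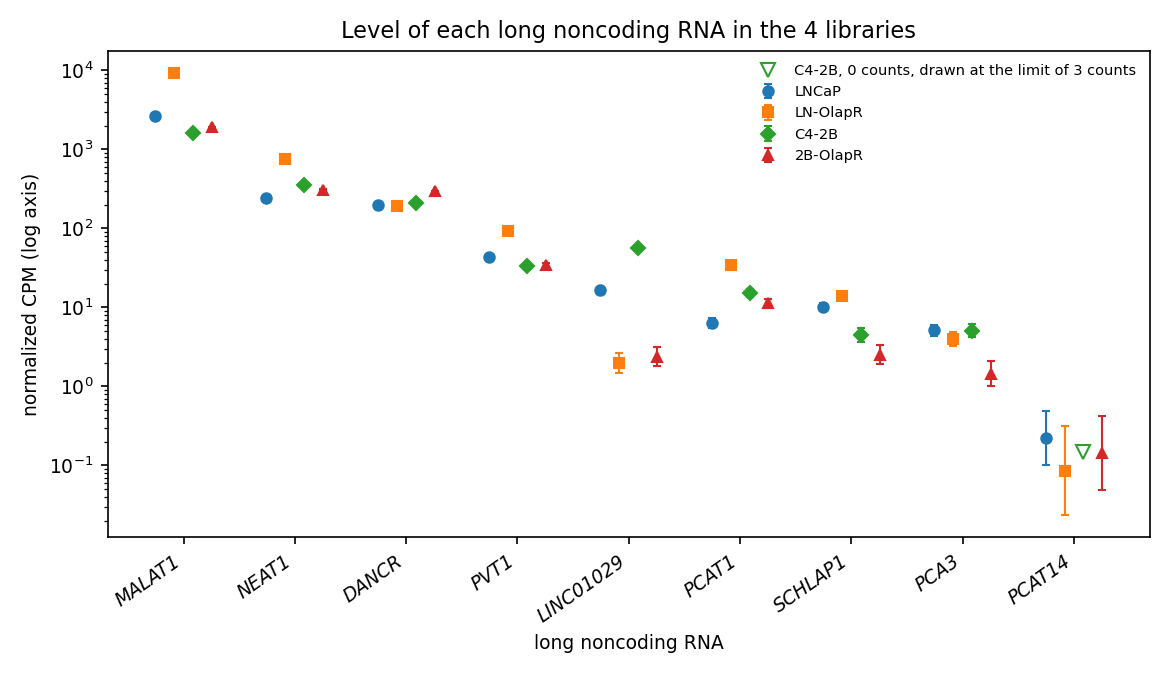
Normalized CPM on a log axis for the 9 listed long noncoding RNAs in the 4 libraries, with bars for the 95% counting interval and an open triangle at the limit of 3 counts for the library with 0 counts. LINC01029 is high in both parental lines and low in both resistant lines, MALAT1, NEAT1, PVT1 and PCAT1 are highest in LN-OlapR, and DANCR stays between 193 and 293 CPM.

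Between genes, levels were compared per kb of the longest annotated transcript. MALAT1 led in LNCaP at 307 CPM per kb and in LN-OlapR at 1064 CPM per kb. In C4-2B and 2B-OlapR the lead went to DANCR, at 229 and 325 CPM per kb, with MALAT1 next at 187 and 218. Per kb of all merged exons, which are longer for DANCR, MALAT1 led in all 4 libraries, with 185 CPM per kb in C4-2B and 215 in 2B-OlapR against 90.4 and 128 for DANCR. PCAT14 was last in all 4 libraries, and PCA3 came just above it. The counting intervals of neighbours in this order overlapped for LINC01029 and NEAT1 in LNCaP, for LINC01029 and PCA3 in LN-OlapR, and for SCHLAP1 and LINC01029 in 2B-OlapR. NEAT1 was at 10.5 to 33.3 CPM per kb over its long form of 22743 nt. Over the short form NEAT1-201 of 3441 nt, an alternative chosen after seeing the data, it was at 69.6 to 219.8 CPM per kb, so its place in the order depends on which form was present.

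Each resistant line was first compared with its parental line, the question of the study. LN-OlapR and LNCaP are called the LN pair here, and 2B-OlapR and C4-2B the 2B pair. A gene counted as analysed when its mean over both libraries reached 1 normalized CPM, which 8 of the 9 listed genes did in each comparison. Between LN-OlapR and LNCaP, PCAT1, MALAT1, NEAT1 and PVT1 were at least 2-fold higher in the resistant line and LINC01029 was at least 2-fold lower. Over all 15373 genes analysed there, 4.64% were at least 2-fold higher and 4.83% lower, and among 1618 genes annotated as long noncoding the shares were 6.98% and 8.03%. Between 2B-OlapR and C4-2B, none of the 8 was at least 2-fold higher, and PCA3 and LINC01029 were lower. The background there was 4.42% higher and 5.65% lower over 15527 genes, and 6.56% and 7.01% among 1570 long noncoding genes. The members' median log2 ratio was 0.76 in the LN pair and -0.30 in the 2B pair, against 0.00 in both pairs over all genes. Because the genes were chosen with results known, these shares are a description. In bulk RNA a lower level can mean fewer cells with the transcript or less of it per cell, and these cannot be told apart.

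**Figure D2:**
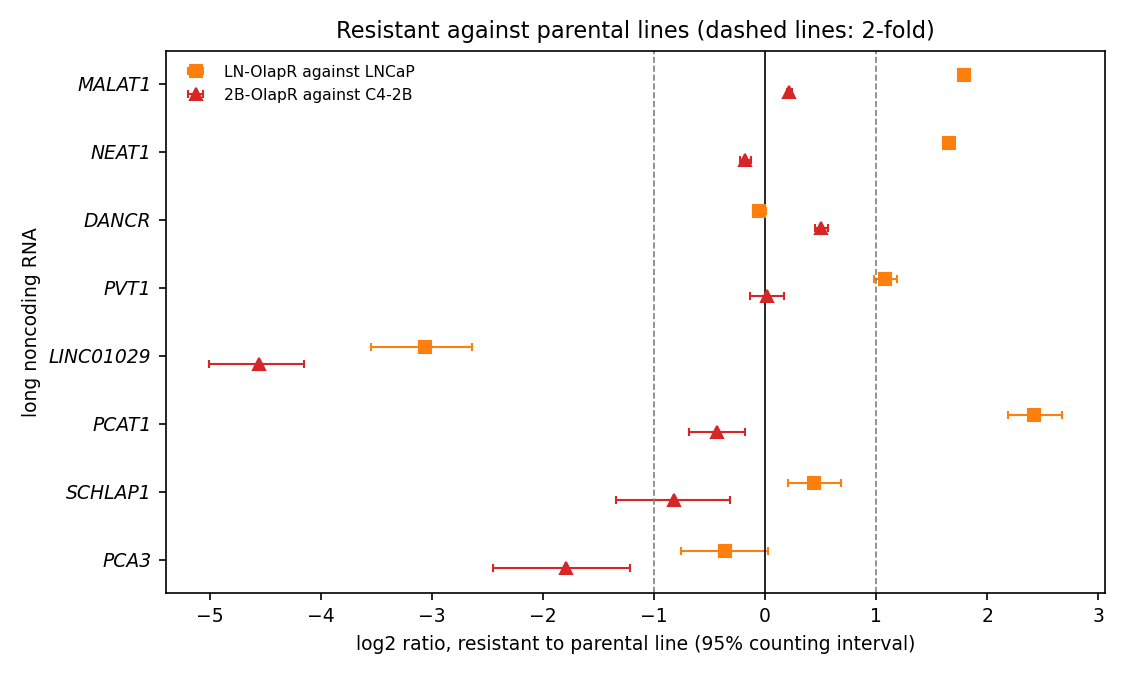
Log2 ratio of each resistant line to its parental line for the 8 analysed long noncoding RNAs, with 95% counting intervals and dashed lines at 2-fold. LINC01029 lies far to the left in both pairs, at -3.06 and -4.55, and PCAT1, MALAT1, NEAT1 and PVT1 lie at 1.08 or above only in the LN pair.

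LINC01029 was the one gene of the set that was at least 2-fold lower in both resistant lines. It is a long intergenic RNA on chromosome 18, between 77971294 and 77993722 on the minus strand. Positions here are those of GENCODE 29 on GRCh38. LNCaP held 447 counts of it (16.6 CPM) and LN-OlapR 46 (1.97 CPM), while C4-2B held 1148 (56.1 CPM) and 2B-OlapR 49 (2.36 CPM). Both resistant libraries were far below both parental libraries. LN-OlapR was 8.35-fold lower than LNCaP, a log2 ratio of -3.06 (95% interval -3.55 to -2.64). 2B-OlapR was 23.5-fold lower than C4-2B, a log2 ratio of -4.55 (-5.01 to -4.16). In the order of all log2 ratios it was gene 119 from the bottom of 15373 in the LN pair and gene 26 from the bottom of 15527 in the 2B pair. Among long noncoding genes alone it was number 10 of 1618 and number 3 of 1570.

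The parental lines themselves differed in LINC01029, with C4-2B 3.37-fold above LNCaP (log2 ratio 1.75, 1.60 to 1.92). The resistant lines differed by no more than counting error, with a log2 ratio of 0.26 between 2B-OlapR and LN-OlapR (-0.35 to 0.87). One annotated gene, the long intergenic RNA AC134978.1, lies within its span on the same strand. AC134978.1 had 3.76 CPM in LNCaP, against 0.0857 CPM for LN-OlapR, 12.0 CPM for C4-2B and 0.531 CPM for 2B-OlapR. It had the same order of parental over resistant lines, with log2 ratios of -5.14 (-8.52 to -3.56) and -4.43 (-5.52 to -3.63), the first resting on 2 counts in LN-OlapR. Because both genes lie on 1 strand, reads of one transcript may be counted for the other, so they are not separate measurements. The nearest coding genes, GALR1 and SALL3, lie 693 and 987 kb away and were not analysed here.

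Across the 4 libraries the genes most like LINC01029 were PTPN21, PHLDA1 and EPHA3, out of 9914 named genes with a mean of at least 10 CPM. Likeness was the root mean square distance of the centred log2 levels, at 0.49 for PTPN21, 0.78 for PHLDA1 and 0.84 for EPHA3. PTPN21, a tyrosine phosphatase, was at 41.2, 6.30, 64.2 and 5.50 CPM in LNCaP, LN-OlapR, C4-2B and 2B-OlapR. These distances were larger than those of PCA3, PCAT1, SCHLAP1, MALAT1, NEAT1 and PVT1 to their nearest neighbours, which stayed between 0.06 and 0.20. A likeness over 4 libraries is weak and says nothing of shared control.

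SCHLAP1 reached 10.1 CPM (272 counts) in LNCaP and 13.8 CPM (321 counts) in LN-OlapR, with C4-2B at 4.45 CPM (91 counts) and 2B-OlapR at 2.51 CPM (52 counts). Both lines of the LNCaP family were above both lines of the C4-2B family. The resistant line was 1.36-fold higher in the LN pair (log2 ratio 0.44, 0.21 to 0.68) and 1.76-fold lower in the 2B pair (-0.82, -1.35 to -0.32). Neither passed 2-fold. C4-2B was 2.27-fold below LNCaP (log2 ratio -1.18, -1.54 to -0.84), and 2B-OlapR was 5.44-fold below LN-OlapR (-2.44, -2.91 to -2.03).

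The gene spans 225 kb on chromosome 2, from 180692104 to 180916939. UBE2E3, which encodes a ubiquitin-conjugating enzyme and is its nearest coding gene at 50.3 kb, differed the other way in both pairs. UBE2E3 had 54.2 CPM in LNCaP, against 34.3 CPM for LN-OlapR, 43.6 CPM for C4-2B and 60.5 CPM for 2B-OlapR. SMARCB1, the SWI/SNF subunit that SCHLAP1 is known to bind, was between 86.1 and 110.0 CPM in all 4 libraries. The genes most like SCHLAP1 over the 4 libraries were ZNF141, TMC4 and OCRL, at distances of 0.11 to 0.13.

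PCA3 reached 5.13 CPM (138 counts) in LNCaP and 3.99 CPM (93 counts) in LN-OlapR, with C4-2B at 5.08 CPM (104 counts) and 2B-OlapR at 1.45 CPM (30 counts). The first 3 libraries had overlapping counting intervals, and 2B-OlapR lay below them. 2B-OlapR was 3.47-fold below C4-2B (log2 ratio -1.79, -2.45 to -1.21), gene 273 from the bottom of 15527. The log2 ratio in the LN pair was -0.36 with an interval that included 0 (-0.76 to 0.03).

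PCA3 lies on chromosome 9, between 76691980 and 76863307, inside PRUNE2 and on the opposite strand, and its transcript is known to pair with the PRUNE2 precursor. PRUNE2 had 680.4 CPM in LNCaP, against 615 CPM for LN-OlapR, 1037 CPM for C4-2B and 346 CPM for 2B-OlapR. It was 2.99-fold lower in the resistant line of the 2B pair (log2 ratio -1.58, -1.62 to -1.54), a value inside the counting interval of the PCA3 ratio. PCA3 counts were 0.418% to 0.754% of PRUNE2 counts. Whether strand was used in counting is not given in the sources used here, so reads of PRUNE2 on the PCA3 exons cannot be told apart from PCA3 reads without it. TTC7B, ZNF274 and AHNAK were the genes most like PCA3, at distances of 0.06 to 0.09.

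**Figure D3:**
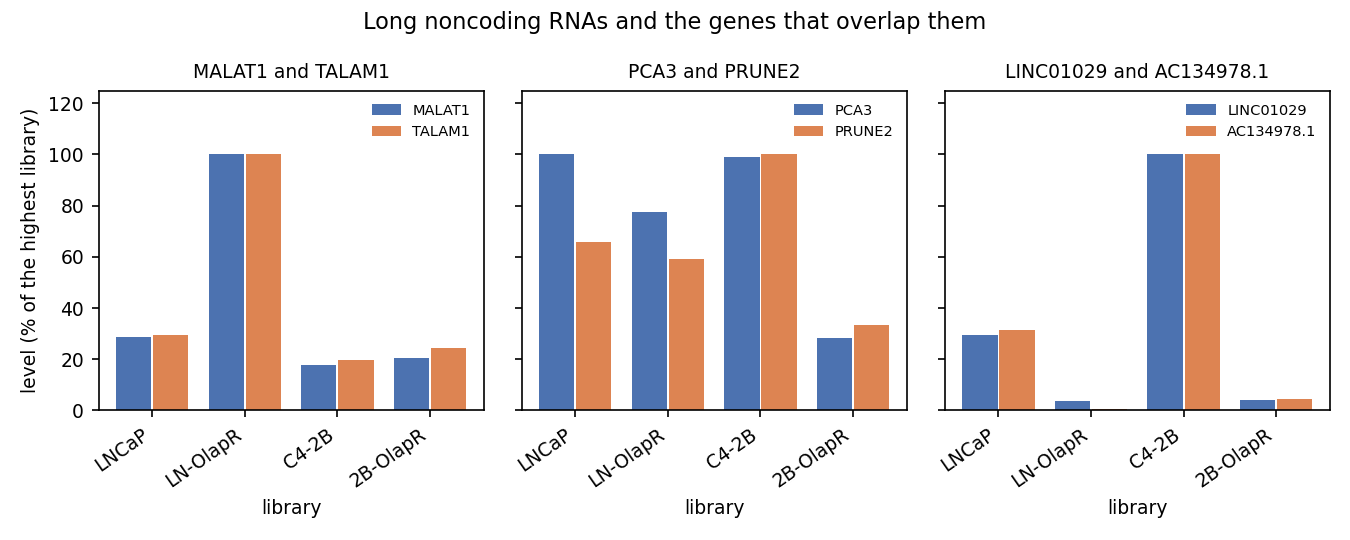
Level of 3 long noncoding RNAs and of an overlapping gene in each library, as bars in percent of that gene's highest library. In each panel both genes have their low libraries in common: LNCaP, C4-2B and 2B-OlapR for MALAT1 and TALAM1, 2B-OlapR for PCA3 and PRUNE2, and both resistant lines for LINC01029 and AC134978.1.

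PCAT14 was close to absent at this depth, with 6, 2, 0 and 3 counts in LNCaP, LN-OlapR, C4-2B and 2B-OlapR. The level in LNCaP was 0.223 CPM (0.102 to 0.487), and 0 counts in C4-2B allow up to 0.147 CPM. LNCaP was at least 1.52-fold higher than this limit of 3 counts, but the counting intervals of all 4 libraries overlapped. No difference in PCAT14 was detectable at this depth, and it was below the minimum of 1 CPM in every comparison. Its nearest coding gene, BCR, lies 219 kb away and was at 61.2 to 98.6 CPM.

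PCAT1 had the highest ratio of the set in the LN pair. It reached 6.36 CPM (171 counts) in LNCaP and 34.2 CPM (798 counts) in LN-OlapR, with C4-2B at 15.1 CPM (309 counts) and 2B-OlapR at 11.2 CPM (232 counts). LN-OlapR stood above the other 3 libraries and LNCaP below them. LN-OlapR was 5.37-fold above LNCaP (log2 ratio 2.42, 2.19 to 2.67), gene 151 from the top of 15373 and number 20 of 1618 among long noncoding genes. 2B-OlapR was 1.35-fold below C4-2B (log2 ratio -0.43, -0.68 to -0.18). C4-2B was itself 2.37-fold above LNCaP (1.25, 0.97 to 1.53), and this comparison shares the LNCaP library with the LN pair.

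BRCA2, which PCAT1 is known to repress, had 33.0 CPM in LNCaP, against 28.6 CPM for LN-OlapR, 53.2 CPM for C4-2B and 52.6 CPM for 2B-OlapR. Its log2 ratio was -0.20 in the LN pair and -0.02 in the 2B pair. The gene most like PCAT1 over the 4 libraries was RIMS1, at a distance of 0.10, followed by KLK2 at 0.16 and SCCPDH at 0.20. KLK2, an androgen-driven kallikrein, reached 126 CPM in LNCaP and 748 CPM in LN-OlapR, with C4-2B at 247 CPM and 2B-OlapR at 233 CPM. KLK3 moved with PCAT1 in the LN pair, at a log2 ratio of 5.66, and the part of the low LNCaP level of these genes in the PCAT1 ratio was not tested.

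PCAT1 and PVT1 lie on either side of MYC on chromosome 8, PCAT1 between 126556323 and 127419050 and PVT1 between 127794533 and 128101253. PVT1 had 43.6 CPM (1173 counts) in LNCaP, against 92.2 CPM (2151 counts) for LN-OlapR, 33.5 CPM (685 counts) for C4-2B and 33.9 CPM (702 counts) for 2B-OlapR. LN-OlapR was again the highest library, and the intervals of both lines of the C4-2B family overlapped. The LN pair gave a ratio of 2.11-fold (log2 ratio 1.08, 0.98 to 1.18), an interval that takes in 2-fold, and the 2B pair gave 1.01-fold (0.02, -0.14 to 0.17). With library totals in place of the scaling factors, PVT1 in the LN pair was at a log2 ratio of 0.995, just short of 2-fold.

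Between the start of PCAT1 and the end of PVT1, a window of 1545 kb, 12 of 24 annotated genes were listed. In the LN pair 6 of them were analysed, and PCAT1, CASC19, POU5F1B and PVT1 were at least 2-fold higher. PCAT1 and PVT1 set the window, so both were in it by choice. CASC19 and POU5F1B were below 1 CPM in LNCaP and passed the minimum mean only through LN-OlapR, where they were high. The count of higher genes is therefore a description and no evidence on the window. Over all genes 4.64% were at least 2-fold higher in the LN pair. In the 2B pair 4 were analysed, without CASC19 and POU5F1B, and none passed 2-fold, where 4.42% of all genes were higher and 5.65% lower. CASC19, a long noncoding RNA that overlaps PCAT1, reached 0.744 CPM in LNCaP and 8.27 CPM in LN-OlapR, with C4-2B at 0.440 CPM and 2B-OlapR at 0.869 CPM. POU5F1B, a retrogene of the pluripotency factor gene POU5F1, was at 0.521, 9.05, 0.538 and 0.386 CPM in the same order. Both were far higher in LN-OlapR than in the other libraries, by 10.9-fold for CASC19 (log2 ratio 3.44, 2.81 to 4.22) and 16.8-fold for POU5F1B (4.07, 3.34 to 5.01) in the LN pair.

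The coding genes MYC, inside that window, and FAM84B, at its start, differed less in the LN pair than PCAT1 and PVT1. MYC, 53.1 kb from PVT1, had 242 CPM in LNCaP, against 321 CPM for LN-OlapR, 248 CPM for C4-2B and 229 CPM for 2B-OlapR, a log2 ratio of 0.41 in the LN pair (0.36 to 0.46). FAM84B, which overlaps the start of the annotated PCAT1 gene, was between 101 and 122 CPM in all 4 libraries. CASC19 lies on the strand opposite to PCAT1, and POU5F1B lies on the same strand. Since both overlap the annotated PCAT1 gene, some reads may be counted for either gene. The 3 genes most like PVT1 were RPS6KC1, ZSCAN30 and CETN2, at distances of 0.11 to 0.13.

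**Figure D4:**
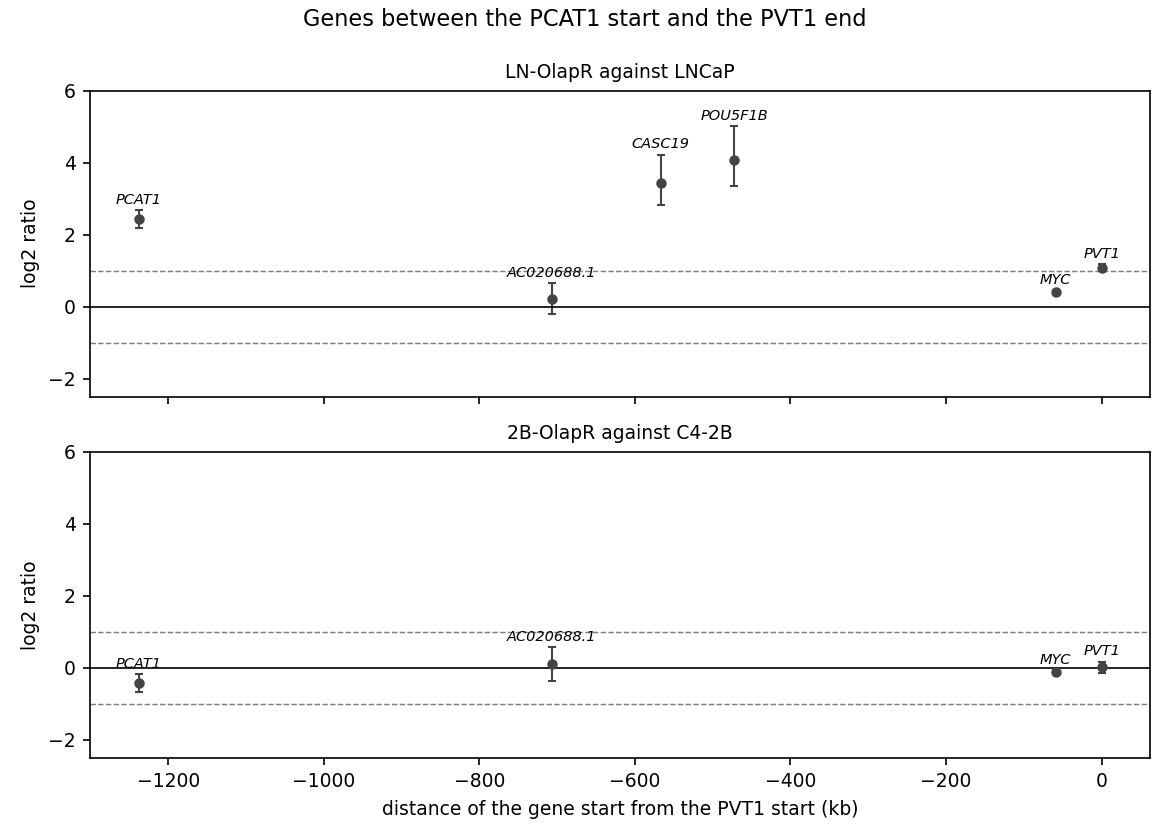
Log2 ratio of each analysed gene between the PCAT1 start and the PVT1 end against the distance of its start from the PVT1 start in kb, for the LN pair (top) and the 2B pair (bottom), with 95% counting intervals and dashed lines at 2-fold. In the LN pair PCAT1, CASC19, POU5F1B and PVT1 lie above 1 and MYC at 0.41, and in the 2B pair all 4 analysed genes lie within 2-fold. CASC19 and POU5F1B passed the minimum level only through LN-OlapR and are not drawn for the 2B pair.

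MALAT1 had the most counts of the set in every library, before any correction for length, and took 0.272% of the LNCaP counts, 0.890% of those of LN-OlapR, 0.167% of those of C4-2B and 0.189% of those of 2B-OlapR. The normalized levels were 2670.4 CPM (2651 to 2690), 9268 CPM (9229 to 9307), 1629.5 CPM (1612 to 1647) and 1895 CPM (1877 to 1914). LN-OlapR was far above the other 3 libraries, which lay within 1.64-fold of each other. The LN pair differed by 3.47-fold (log2 ratio 1.80, 1.78 to 1.81), gene 255 from the top of 15373. The 2B pair differed by 1.16-fold (0.22, 0.20 to 0.24), an interval narrow through the depth of the gene and silent on the spread between cultures.

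TALAM1, the antisense transcript of the MALAT1 locus, moved with it. TALAM1 reached 726 CPM in LNCaP and 2452 CPM in LN-OlapR, with C4-2B at 487 CPM and 2B-OlapR at 595 CPM. Its counts were 26.5% to 31.4% of those of MALAT1, a nearly fixed share, and reads of the pair cannot be told apart unless strand was used in counting. Besides TALAM1, the genes most like MALAT1 were SEC11C, a subunit of the signal peptidase, at a distance of 0.08, and ADGRG6, an adhesion receptor, at 0.16.

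NEAT1 had 239 CPM (6438 counts) in LNCaP, against 757 CPM (17646 counts) for LN-OlapR, 351 CPM (7176 counts) for C4-2B and 309.9 CPM (6421 counts) for 2B-OlapR. As with MALAT1, LN-OlapR was the highest, but the lowest library was LNCaP and not C4-2B. LN-OlapR was 3.16-fold above LNCaP (log2 ratio 1.66, 1.62 to 1.70), and 2B-OlapR was 1.13-fold below C4-2B (-0.18, -0.23 to -0.13). C4-2B was 1.46-fold above LNCaP (0.55, 0.50 to 0.60), where MALAT1 was 1.64-fold below (-0.71, -0.73 to -0.69).

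NEAT1 lies at 65422774 to 65445540 and MALAT1 at 65497688 to 65506516 on chromosome 11, both on the plus strand. FRMD8, 9.25 kb before NEAT1, was at 39.99, 56.4, 46.1 and 70.4 CPM in LNCaP, LN-OlapR, C4-2B and 2B-OlapR. This coding neighbour differed less than NEAT1 in the LN pair, by a log2 ratio of 0.50 (0.38 to 0.61). In the 2B pair the log2 ratio of FRMD8 was 0.61 (0.49 to 0.73), against -0.18 for NEAT1. NDRG1, a stress-responsive gene, was the one most like NEAT1, at a distance of 0.12, followed by IGSF9B and DYNC2I1.

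The proteins that work with these RNAs were compared from lists of paraspeckle proteins and of speckle proteins and MALAT1 binders. Over all genes 4.64% were at least 2-fold higher and 4.83% lower in the LN pair, and 4.42% and 5.65% in the 2B pair. Of 35 analysed paraspeckle proteins in the LN pair, none was at least 2-fold higher and only MEX3A was lower, with a median log2 ratio of -0.04. In the 2B pair, FIGN was higher and MEX3A lower out of 35, with a median of 0.01. MEX3A, an RNA-binding protein, reached 56.4 CPM in LNCaP and 20.8 CPM in LN-OlapR, with C4-2B at 40.8 CPM and 2B-OlapR at 10.2 CPM. The core paraspeckle proteins SFPQ and NONO were within 384 to 426 CPM and 520.3 to 619 CPM.

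Of 34 speckle proteins and MALAT1 binders, only RPP25 was at least 2-fold higher in the LN pair and none was lower, with a median of 0.05. RPP25, a subunit of RNase P, was at 1.71 CPM in LNCaP and 4.80 CPM in LN-OlapR. Its log2 ratio was 1.48 in the LN pair and 2.02 between C4-2B and LNCaP, and both ratios share the LNCaP library. None of the 34 passed 2-fold in the 2B pair, where the median was 0.17. POP1, another RNase P subunit, came closest there, at 34.8 CPM in C4-2B and 69.7 CPM in 2B-OlapR.

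DANCR was the steadiest gene of the set. It had 200.4 CPM (5387 counts) in LNCaP, against 193 CPM (4502 counts) for LN-OlapR, 207 CPM (4229 counts) for C4-2B and 293 CPM (6079 counts) for 2B-OlapR. The first 3 libraries lay close together, and 2B-OlapR was above them. The 2B pair differed by 1.42-fold (log2 ratio 0.51, 0.45 to 0.56), and the LN pair by a log2 ratio of -0.05 with an interval that reached 0 (-0.11 to 0.00). Its coding neighbour ERVMER34-1, 2.27 kb away on the other strand, was at 0.930, 8.49, 27.9 and 29.1 CPM in LNCaP, LN-OlapR, C4-2B and 2B-OlapR. USP46, on the other side, was at 29.3 to 49.4 CPM.

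DANCR is the host of SNORA26, and a list of host genes of small nucleolar RNAs was compared. DANCR is itself in the list, so the counts and medians below include it. None of 27 host genes analysed in the LN pair passed 2-fold in either direction, with a median log2 ratio of -0.03. In the 2B pair 1 of 28, SNHG25, was at least 2-fold higher and none was lower, with a median of 0.23. Over all genes 4.64% were at least 2-fold higher and 4.83% lower in the LN pair, and 4.42% and 5.65% in the 2B pair. SNHG25 was at 1.27 CPM in C4-2B and 2.85 CPM in 2B-OlapR.

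The start of DANCR is shown because it is the steady gene of the set that has a RefSeq promoter window, of 250 bases before to 50 bases after the start site. Such windows matched 4 of the 10 genes. Capitals mark the letters CCAAT or, on the other strand, ATTGG, the core of the box bound by the factor NF-Y.
DANCR, chr4:52712144-52712443, plus strand, GRCh38.p14: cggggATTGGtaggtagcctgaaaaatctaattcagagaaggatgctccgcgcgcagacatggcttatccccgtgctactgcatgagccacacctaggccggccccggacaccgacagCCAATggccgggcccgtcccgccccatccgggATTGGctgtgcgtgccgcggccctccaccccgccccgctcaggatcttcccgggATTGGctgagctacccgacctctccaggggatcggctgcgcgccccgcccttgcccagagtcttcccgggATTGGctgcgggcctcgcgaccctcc

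The window held 5 matches on both strands together. At least 1 match was present in 34.6% of 35116 RefSeq windows of 300 bases, and 5 or more in 0.359%. The same window held 3 matches of the GC box GGGCGG, which 44.95% of windows held, and none of the androgen half-site AGAACA, which 14.8% held. Several motifs were searched in the 6 windows of these 4 genes, so 0.359% is the share for 1 motif and window among several. The half-site AGAACA had 1 match in the window of PCGEM1 and 1 in a window of MALAT1. None of the 6 windows held the full androgen response element, the forkhead motif TGTTTAC or the letters CACGTG. Of all windows 0.00285%, 3.42% and 7.26% held these. A match is a description of letters and not of a bound site.

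The parental lines and the resistant lines were also compared across families. Of the 8 analysed genes, PCAT1 and LINC01029 were at least 2-fold higher in C4-2B than in LNCaP and SCHLAP1 was lower, against a background of 8.00% higher and 7.18% lower over all genes and of 8.50% and 11.9% among long noncoding genes. Between the resistant lines, none was higher in 2B-OlapR and 6 were lower: PCA3, PCAT1, SCHLAP1, MALAT1, NEAT1 and PVT1. The background there was 8.93% higher and 9.45% lower over all genes, and 12.3% and 13.2% among long noncoding genes. The lowest of these log2 ratios were those of SCHLAP1, at -2.44, and MALAT1, at -2.29. The comparisons share libraries, and the ratio between the resistant lines follows from the other 3, so it adds no separate evidence.

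Both resistant lines were also tested together against both parental lines, with the parental family as a block, which leaves 1 residual degree of freedom. By edgeR's quasi-likelihood test 0 of 15645 genes (0%) passed an adjusted p of 0.05, 1279 had an unadjusted p under 0.05, and none of the 8 analysed genes passed. LINC01029 came nearest, with a log2 difference of -3.83 and an adjusted p of 0.249, and it was lower in both resistant lines. PCA3 had a log2 difference of -1.06 with an adjusted p of 0.671. MALAT1 had a log2 difference of 1.01 with an adjusted p of 0.616, and the other 5 genes had adjusted p values between 0.693 and 0.930. The genes were chosen with earlier results of these data known, so their p values here are a description and no separate evidence. The fit does not show that these levels are equal in resistant and parental lines.

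Other long noncoding RNAs known from prostate cancer had ratios in both directions in each pair. Of 39 such names 23 were listed. Of these, 14 were analysed in the LN pair, where 3 were at least 2-fold higher and none lower, with a median log2 ratio of -0.20. These 3 were ARLNC1, PCAT19 and CASC19, which also lies in the window from PCAT1 to PVT1. All were below 1 CPM in LNCaP and passed the minimum mean only through LN-OlapR, where they were high. The highest was ARLNC1, an androgen-regulated RNA, at 0.0372 CPM in LNCaP (1 count) and 2.01 CPM in LN-OlapR, and the lowest was PART1, at 5.95 and 3.001 CPM. In the 2B pair 12 were analysed, with 1 higher, 2 lower and a median of 0.30. The highest there was PCAT19, at 2.05 CPM in C4-2B and 4.49 CPM in 2B-OlapR, and the lowest was ARLNC1, at 6.70 and 0.724 CPM. In that pair ARLNC1 passed the minimum mean only through C4-2B. Among all long noncoding genes 6.98% were at least 2-fold higher and 8.03% lower in the LN pair, and 6.56% and 7.01% in the 2B pair. Over all genes these shares were 4.64% and 4.83% in the LN pair, and 4.42% and 5.65% in the 2B pair.

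Of 40 names of long noncoding RNAs found in many cell types, 34 were listed and 27 were analysed in each pair. In the LN pair 4 were at least 2-fold higher and 2 lower, with a median of -0.10, and in the 2B pair 3 were higher and 1 lower, with a median of -0.21. CYTOR had the highest ratio in the LN pair, at 0.372 CPM in LNCaP and 2.10 CPM in LN-OlapR. HOTAIRM1 had the lowest in the 2B pair, at 1.86 CPM in C4-2B and 0.869 CPM in 2B-OlapR. CYTOR and HOTAIRM1 each passed the minimum mean only through the higher library of the pair. The background shares are those given for the list before.

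Of 11 coding genes tied to the set, KLK3, KLK2, TMPRSS2 and FKBP5 were at least 2-fold higher in the LN pair and none was lower. All 4 are androgen-driven genes. In the 2B pair TMPRSS2 was higher and PRUNE2 lower. TMPRSS2 was the one gene of the 11 above 2-fold in both pairs, at log2 ratios of 1.28 and 1.01.

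**Figure D5:**
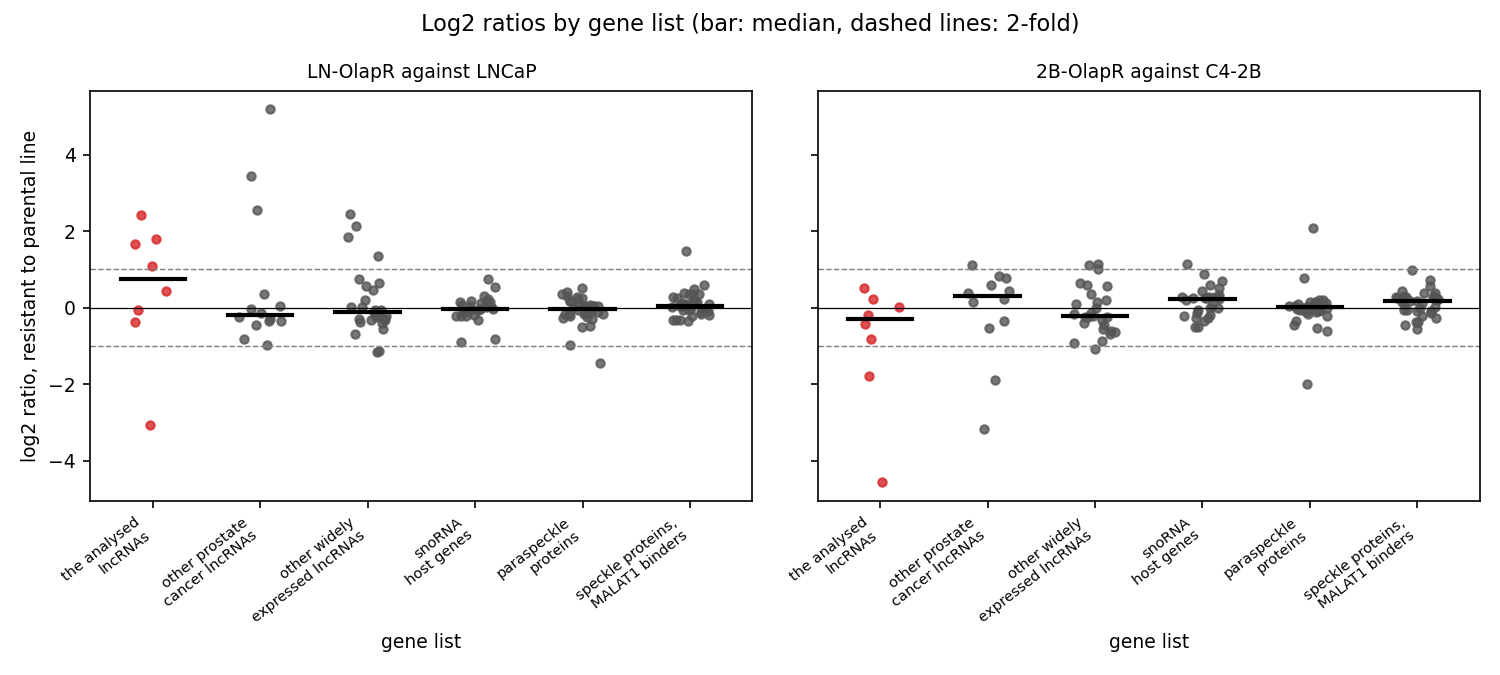
Log2 ratios of the 8 analysed long noncoding RNAs (red) and of the analysed members of 5 comparison lists (grey) in the LN pair (left) and the 2B pair (right), with black bars at the medians and dashed lines at 2-fold. The members' medians are 0.76 and -0.30, and the protein lists and small nucleolar RNA host genes lie mostly within 2-fold in both pairs. DANCR is drawn both in red and among the host genes.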

How the data were processed

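The authors prepared stranded mRNA libraries from 100 ng of RNA (KAPA) and deposited 1 table of estimated counts per gene, not scaled between libraries. The submitters' processing notes name STAR, Partek and the builds GRCh38 and hg38, without their roles, and the annotation release and the use of strand are not given in the sources used here. Estimated counts were rounded. CPM were scaled with TMM factors over all 4 libraries (edgeR 4.0.16, R 4.3.3). Log2 ratios used a pseudocount of 0.5 counts, exact conditional binomial 95% intervals, and a minimum mean of 1 CPM over both libraries. Intervals of single levels are Wilson intervals, and a count of 0 is given with the limit of 3 counts. With 1 library per line, no test was made within a pair. Both resistant lines were tested together against both parental lines over genes with a mean of at least 1 CPM (edgeR's quasi-likelihood test, Benjamini-Hochberg adjustment), with the parental family, taken from the derivation of the lines, as a block. The ratios and the joint fit were tried on simulated counts. The counts for the joint fit held no difference between the families and the same spread for all genes. They do not test how the block takes up such a difference. Gene positions and types come from GENCODE 29, which matched 94.4% of the listed identifiers, and promoter windows from RefSeq. The named genes were the 10 members, genes that overlap or flank them, the 3 most alike genes, and from each list the genes with the highest and lowest ratio and partners of a member. The members, lists and rules were chosen with earlier results of these data known. Alternatives were other scalings (DESeq2 1.42.0 size factors, upper quartile, total counts), pseudocounts, minimums, a 1.5-fold threshold and other transcript lengths.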

Additional observations from a re-analysis of the deposited data

Results flagged for a closer look

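PCAT1, SCHLAP1 and NEAT1 differed in opposite directions between each resistant line and its parental line, with neither counting interval including 0. The log2 ratio of PCAT1 was 2.42 between LN-OlapR and LNCaP and -0.43 between 2B-OlapR and C4-2B. For SCHLAP1 these ratios were 0.44 and -0.82. For NEAT1 they were 1.66 and -0.18. The difference between the pairs was not tested, since each line has 1 library.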

How the results depend on the processing

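The joint fit of both resistant against both parental lines was chosen after seeing the data, and it called 0 genes with the parental family as a replicate block and 0 without it, with 1279 and 363 genes at an unadjusted p under 0.05. No log2 ratio of the analysed genes changed its direction past its counting interval under another scaling or pseudocount. Without a minimum level, PCAT14 joined the counts at 6, 2, 0 and 3 counts, which gave 2 lower genes in the LN pair, 1 higher gene in the 2B pair and 2 lower genes in C4-2B against LNCaP. With a minimum mean of 10 CPM, 0 genes were lower in the LN pair, 1 in the 2B pair, 0 in C4-2B against LNCaP and 4 in 2B-OlapR against LN-OlapR, where PCA3 and SCHLAP1 were lost. At 1.5-fold, 2 genes were lower in C4-2B against LNCaP and 1 was higher in 2B-OlapR against LN-OlapR, and SCHLAP1 joined PCA3 and LINC01029 as the 3 lower genes of the 2B pair. With total counts 6 of 36 ratios, and with upper quartile factors 4 of 36, moved by more than their counting interval, all of them ratios of MALAT1, NEAT1 or DANCR. Per kb of merged exons, 24 of 36 levels moved by more than their interval, and DANCR no longer led in C4-2B and 2B-OlapR. Depth limits PCAT14 most, and PCA3 and LINC01029 rest on 30 to 49 counts in their lowest libraries.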

Other observations

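TMEFF2, a membrane protein gene of the prostate, is the coding gene nearest to PCGEM1 on the side of lower coordinates, at 554 kb. LNCaP held 1811 of its counts (67.4 CPM), whereas LN-OlapR held 21 and C4-2B held 3. 2B-OlapR held none, which allows up to 3 counts.

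GCNT1, a glycosyltransferase gene 40.8 kb from PCA3 and the coding gene nearest to it outside PRUNE2, was lower in each resistant line than in its parental line. GCNT1 stood at 118 CPM in LNCaP and 49.0 CPM in LN-OlapR, and at 31.7 CPM in C4-2B and 18.3 CPM in 2B-OlapR. The log2 ratios were -1.27 (-1.37 to -1.17) in the LN pair and -0.79 (-0.98 to -0.61) in the 2B pair.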
